A study of Mus musculus with 12 samples.

Results

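Regulated exocytosis is the release of stored hormone or transmitter when a vesicle fuses with the plasma membrane on a calcium signal, and its machinery was followed here in the mouse pituitary. The members were all non-control array probes whose gene symbol is a numbered Syt, Stx, Stxbp or Vamp gene, Snap23, Snap25, Snap29, Rab3a to Rab3d, Rab27a, Rab27b, Rims1 to Rims4, Unc13a to Unc13d, Cplx1 to Cplx4, Cadps or Cadps2. These were 113 of the 39429 probes on the array, for 69 of 30175 gene names. After a filter on dim probes 93 member probes for 60 genes were left, of 24605 probes in all.

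The animals were 12 adult female mice of the C57BL/6J strain, aged 2 months, with 4 biological replicates in each of 3 diet groups and no other treatment named. The early life group had a diet deficient in vitamin D only in early life, the peripubertal group had that diet only around puberty, and the control group had a normal diet. RNA of the whole gland was hybridised on 6 Agilent arrays with a Cy5 and a Cy3 channel. Each array carried 2 animals of a single group, the even-numbered one in Cy5 and the odd-numbered one in Cy3, with no dye swap.

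In an endocrine cell, hormone sits in dense-core granules that wait at the plasma membrane. Syntaxins and Snap25-type proteins on that membrane zip together with Vamp proteins on the granule into a SNARE bundle, which pulls both membranes together. Stxbp proteins of the Munc18 kind hold and template syntaxin, Rab3 and Rab27 GTPases with their Rims effectors bring granules to the membrane, Unc13 and Cadps proteins prime them, complexins clamp the bundle, and synaptotagmins sense the calcium. In the pituitary this chain serves the release of growth hormone, prolactin and the other hormones of the gland.

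Both control arrays lay on 1 slide with its own scan, the 4 deficient arrays on a second one. In either comparison with control, slide and diet cannot be told apart. The comparison of early life with peripubertal deficiency was made within 1 slide. The deposited value table conflicts with the scanner files: each of its 8 deficient columns matches (tolerance 1e-06, log2) a channel that is filed with the opposite deficient diet. Group names follow the scanner files, and under the value table's assignment every early life minus peripubertal difference would turn its sign. Between 50.6% and 67.2% of spots were well above background in a channel. All 12 marker genes of the hormone cells were well above background in all 12 channels. Of 8 neuronal markers, 4 were so in all 12 channels and 2, Gad1 and Neurod6, in none. Of 3 genes of mast cells and other secretory leukocytes, 2, Cpa3 and Cma1, were also so in none. The other, Mcpt4, was so in some of the 12 channels but not in all. In whole-gland RNA, fewer cells of a type and less RNA per cell cannot be told apart.

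Every probe was a 60-mer, printed 5′ to 3′ as the scanner files list it, with positions on mouse build mm9 as the files give them. Exon and UTR positions were not looked up here, so no more than the first 30 bases are printed, except for 3 whole probes. The complexin 2 probes come first, because 4 of the 5 are made of A and G alone. Of these 4, 2 are printed, with the probe of mixed bases after them. Capitals mark each GGA triplet. The files place A_55_P2067960 at chr13:108816800-108816859 and A_55_P2040775 at chr5:112438094-112438174, both away from the probe with mixed bases, A_51_P485161, at chr13:54485200-54485259. The 3 printed here are on the plus strand.
Cplx2 A_55_P2067960: aGGAGGAGGAGGAGGAGGAGGAGGAGGAgg
Cplx2 A_55_P2040775: aaGGAGGAGGAGGAGGAGGAgaaGGAagag
Cplx2 A_51_P485161: tccccactttgtatgatgcaaatgctaaga

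Over their full length these probes hold 16, 16 and 0 GGA triplets in the order printed. Probes of A and G alone are rare on the array, 23 of 39429, and 4 of those 23 carry the Cplx2 symbol.

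The next probes are shown because probes of the same gene gave different results. For Vamp4 they are A_55_P2058992 at chr1:164519597-164519656 and A_52_P525070 at chr1:164528962-164529021. For Snap23 they are A_52_P393306, whose 60 bases span chr2:120411292-120411905, A_55_P2287260 at chr2:120425750-120425809 and A_55_P2471798 at chr2:120426853-120426912. The Syt6 probes are A_55_P2121240 at chr3:103424769-103424828 and A_55_P1965219 at chr3:103439038-103439097. These lie on the plus strand. The only Stxbp6 probe, A_55_P2003638, had the smallest p of any member and lies at chr12:45953493-45953552 on the minus strand.
Vamp4 A_55_P2058992: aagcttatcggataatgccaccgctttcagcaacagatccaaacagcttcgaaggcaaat
Vamp4 A_52_P525070: cttagtagtatgtcattattttagacctca
Snap23 A_52_P393306: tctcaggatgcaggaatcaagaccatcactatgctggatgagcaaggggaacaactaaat
Snap23 A_55_P2287260: ttgacggtagcctttaaaagatacacacac
Snap23 A_55_P2471798: gtggcatccaaggtatatttggttagaata
Syt6 A_55_P2121240: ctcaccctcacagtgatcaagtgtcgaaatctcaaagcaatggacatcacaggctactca
Syt6 A_55_P1965219: tgtgtcttcccacccctgtcacagcctgga
Stxbp6 A_55_P2003638: gagacaagttaacagctgttcttttggttc

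Most of the machinery was measured in the gland. Of the 113 member probes, 80 were well above background in all 12 channels and 8 in none. The 9 genes left without a probe after the filter were Cplx4, Rims1, Rims4, Stx19, Syt12, Syt14, Syt2, Syt8 and Unc13c. The filter asked for 4 or more of the 12 channels well above background, and the brightest kept probe stands for its gene below. All 7 Vamp genes, all 7 Stxbp genes and all 6 Rab3 and Rab27 genes kept a probe, as did 14 of 15 syntaxins and 13 of 17 synaptotagmins. Fewer of the Rims genes did, 2 of 4. Values are normalised log2 intensities, and levels of different probes are not comparable.

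No member probe passed in any comparison at a Benjamini-Hochberg adjusted p of 0.05 over all probes (limma, two-sided, array as a random block). For early life against control 0 of 88 member probes passed, where 0.0968% of all 23753 probes did. For peripubertal against control 0 of 91 passed, against 0.0207% of all 24206. For early life against peripubertal 0 of 87 passed, against 0.399% of all 23576. With backgrounds this low, counts of 0 among the members are close to what the array as a whole gives. At an unadjusted p under 0.05 the members numbered 13 in the first of these comparisons (14.8%, and 17.2% of all probes), 4 in the second (4.4%, and 4.99% of all probes) and 20 in the last (23%, and 20.2% of all probes).

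The whole set did not lean one way. Its median log2 difference was -0.008 (early life against control), -0.015 (peripubertal against control) and -0.024 (early life against peripubertal), beside 0.009, 0.002 and 0.020 over all probes. Median centring of each channel moved the first of these to 0.17 and that of all probes to 0.13, and the second to 0.11 and 0.12, so these medians depend on the scaling. For 73 of 88, 81 of 91 and 69 of 87 member probes the 95% interval of the difference lay within 1 log2 unit of 0. Single-gene differences below that size were often inside the error, with a median standard error of 0.19 in each comparison. The groups did not overlap for 12, 11 and 23 member probes in the 3 comparisons, which is 13.6%, 12.1% and 26.4% of them, beside 14.8%, 9.07% and 21.6% of all probes.

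**Figure D1:**
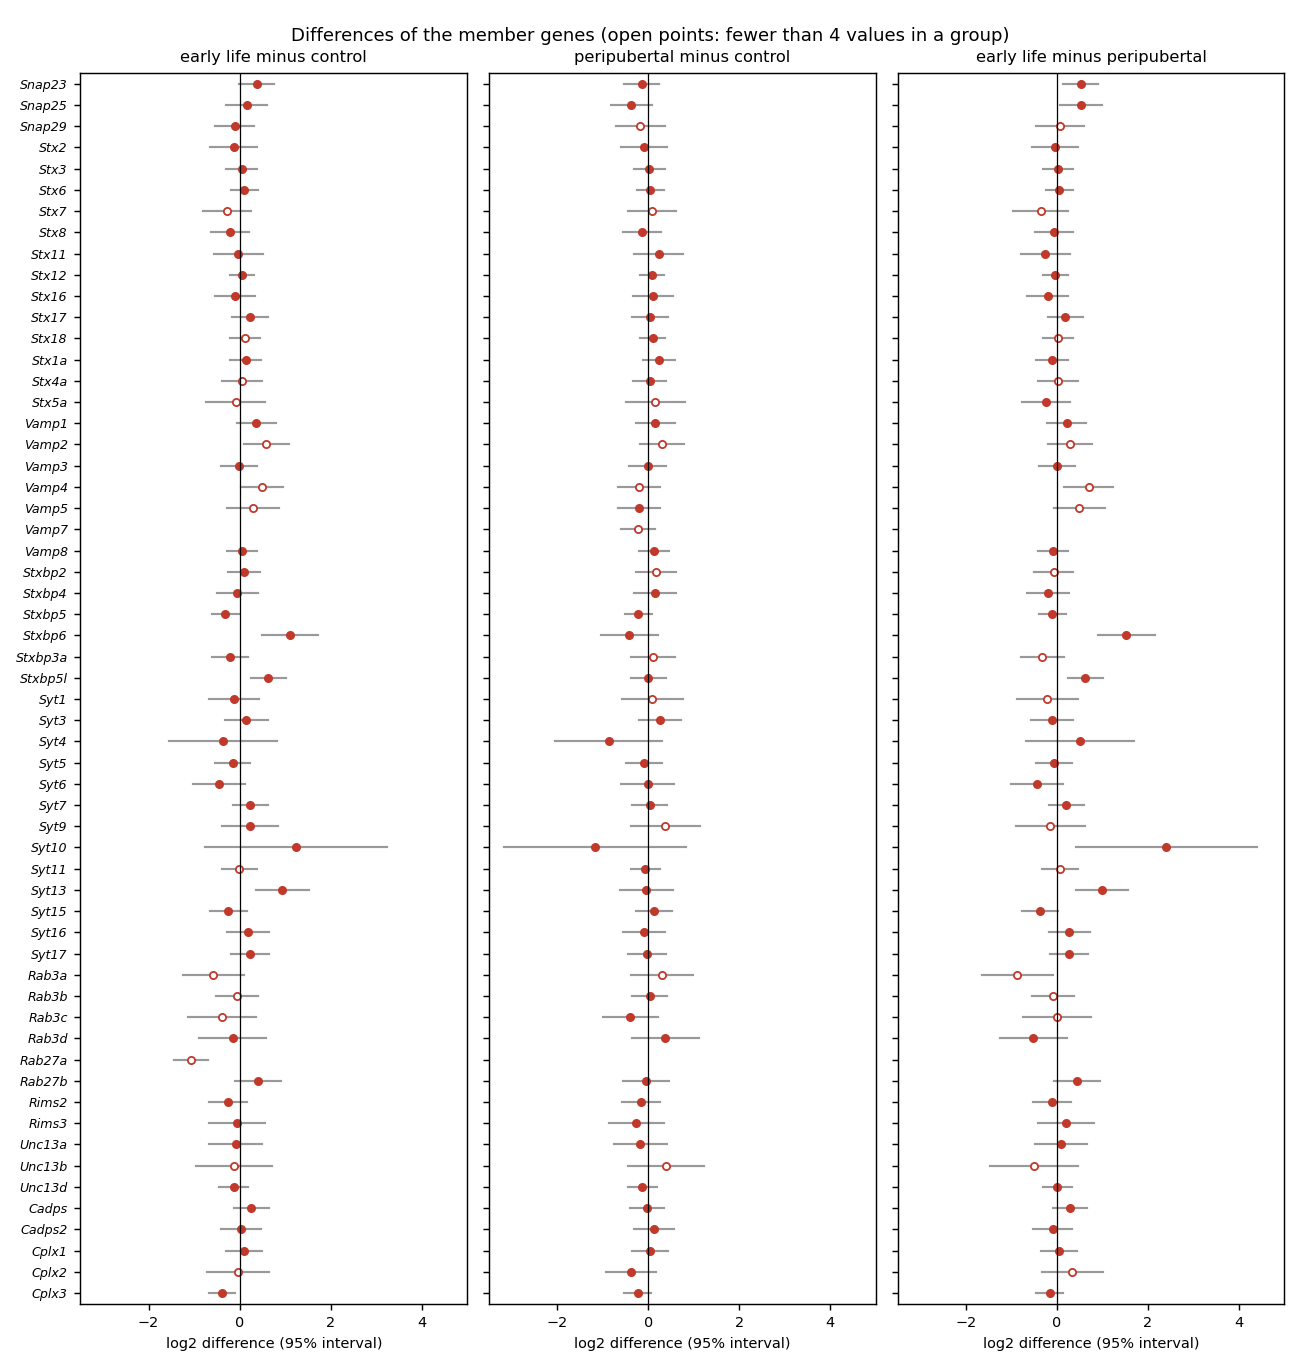
Log2 differences (x axis) of 58 member genes with a kept probe (y axis, by role), 1 panel per diet comparison, with 95% intervals from limma. Filled points have 4 values in each group, open points fewer, and an empty row has no value in a group. Most intervals cross 0; Stxbp6, Syt13 and Stxbp5l stand to the right in both panels with early life on top, Rab27a to the left against control, and Syt10 has the widest intervals.

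For Snap25 and the syntaxin genes, no difference in RNA between the diet groups passed. Snap25, the membrane SNARE of neurons and endocrine cells, read 14.46, 14.60, 14.57 and 14.98 in early life animals 1 to 4, 13.86, 13.81, 14.53 and 14.31 in peripubertal animals, and 14.15, 14.50, 14.65 and 14.72 in control animals. Peripubertal 1 and 2, which share an array, were the lowest of the 12. The difference was 0.15 (SE 0.21, adjusted p = 0.732) for early life against control, -0.38 (SE 0.21, adjusted p = 0.999) for peripubertal against control and 0.53 (SE 0.21, adjusted p = 0.194) for early life against peripubertal by limma. Stx1a, a plasma membrane syntaxin that pairs with Snap25, read 9.54, 9.37, 9.10 and 9.21 in early life, 9.57, 9.62, 9.20 and 9.26 in peripubertal and 9.34, 9.13, 8.98 and 9.24 in control animals. These overlap between all groups, and the differences lay between -0.11 and 0.24 with standard errors of 0.16. Over 13 measured syntaxin genes the differences lay between -0.36 and 0.24 in the 3 comparisons, with 7, 11 and 5 of them above 0.

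Snap23, the relative of Snap25 found in most cell types, gave different answers by probe. Probe A_55_P2471798 read 8.85, 9.08, 9.0 and 9.06 in early life animals, 9.63, 9.66, 9.38 and 9.56 in peripubertal animals and 9.53, 9.62, 8.95 and 9.40 in control animals. Every early life value lay below every peripubertal value, with a difference of -0.56 (SE 0.15, adjusted p = 0.105, and between 0.0333 and 0.647 over the alternatives). The brightest Snap23 probe, A_55_P2287260, stood the other way round, at 14.00, 14.22, 14.30 and 14.65 in early life, 13.62, 13.55, 13.98 and 13.95 in peripubertal and 13.67, 13.98, 13.82 and 14.22 in control animals. Here the early life values all lay above the peripubertal ones, by 0.52 (SE 0.17, adjusted p = 0.152). The third probe, A_52_P393306, gave -0.40 (SE 0.24, adjusted p = 0.365). No direction can be given for the gene.

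Among the granule SNAREs, Vamp2, the synaptobrevin of synaptic vesicles and hormone granules, had a value on 3 arrays with its brightest probe A_52_P301495. It read 13.50 and 13.33 in early life 3 and 4, 13.17 and 13.09 in peripubertal 3 and 4, and 12.82 and 12.84 in control 1 and 2. The second probe, A_55_P2008151, had all values: 7.68, 7.61, 7.71 and 7.53 in early life, 7.73, 7.56, 7.57 and 7.49 in peripubertal and 7.52, 7.36, 7.37 and 7.19 in control animals. Both probes averaged higher in each deficient group than in control. For A_55_P2008151 the difference was 0.28 (SE 0.10, adjusted p = 0.232) for early life and 0.23 (SE 0.10, adjusted p = 0.999) for peripubertal against control, and for A_52_P301495 it was 0.59 (SE 0.20, adjusted p = 0.243) and 0.30 (SE 0.20, adjusted p = 0.999). Probe A_55_P2008151 was well above background in 11 of the 12 channels. Over the measured Vamp genes, 5 of 6 differences were above 0 for early life against control (median 0.33) and 3 of 7 for peripubertal against control (median -0.02). For early life against peripubertal 5 of 6 were (median 0.25), and none passed. Over all probes these counts were 12153 of 23753, 12186 of 24206 and 12338 of 23576. On the probes used, Vamp2, Vamp4 and Vamp5 had early life values from 1 array each. Vamp4 counts as above 0 in both early life comparisons through its brightest probe only, and its other probe lay below 0.

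Vamp4, a SNARE of the trans-Golgi network and endosomes, again split by probe, and both probes lost 1 array of each deficient group. A_55_P2058992 read 10.09 and 9.90 in early life 1 and 2, 10.95 and 10.89 in peripubertal 3 and 4, and 11.35, 10.99, 10.78 and 11.46 in control animals. Both early life values lay below all others, with a difference of -1.15 (SE 0.28, adjusted p = 0.146) against control. It passed in 3 of 29 alternatives, among them without control 3, the lowest control animal (adjusted p = 0.0450). The other probe, A_52_P525070, read 11.75 and 11.80 in the same early life animals, 11.08 and 11.08 in peripubertal 3 and 4, and 11.13, 11.38, 11.51 and 11.14 in control animals. There both early life values lay above all others, by 0.49 (SE 0.20, adjusted p = 0.275) against control.

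Splits of this kind were common. Of the 23 member genes with several tested probes, all probes of a gene differed in 1 direction in 10 (early life against control), 8 (peripubertal against control) and 10 (early life against peripubertal). These are 43.5%, 34.8% and 43.5% of them, beside 54.6%, 56.2% and 57.4% over all genes with several tested probes. Most of these differences are inside their error.

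Among the syntaxin-binding proteins, Stxbp6 and Stxbp5l were higher in early life animals, without passing. Stxbp6, or amisyn, carries a SNARE motif that can take the place of a Vamp protein in the bundle. It read 10.05, 9.68, 9.13 and 9.93 in early life animals, 8.45, 8.41, 7.86 and 7.99 in peripubertal animals and 8.61, 8.43, 9.04 and 8.28 in control animals. All 4 early life values lay above all 8 others. Early life averaged 9.70 ± 0.41, peripubertal 8.18 ± 0.30 and control 8.59 ± 0.33 (log2, SD, n = 4 each). The early life minus peripubertal difference was 1.52 (SE 0.29, 95% interval 0.90 to 2.15), a fold of 2.87, with an adjusted p of 0.0511 by limma and between 0.00518 and 0.487 over the alternatives. Against control it was 1.11 (SE 0.29, adjusted p = 0.130), and peripubertal against control gave -0.41 (SE 0.29, adjusted p = 0.999). The early life minus peripubertal difference passed in 7 of 30 alternatives. Among them were the fits without early life 3 (1.76, adjusted p = 0.0141), without control 3 (adjusted p = 0.0295) and with a normexp offset of 16 (1.65, adjusted p = 0.0478). Control 3 is in neither group of that comparison and enters it only through the shared fit. The early life minus control difference passed in 3 of 30 alternatives, among them without early life 3 (1.34, adjusted p = 0.0298).

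Stxbp5l, or tomosyn-2, holds syntaxin and Snap25 in complexes that Vamp2 cannot enter. Probe A_55_P2048980 read 9.33, 9.29, 8.77 and 8.92 in early life, 8.42, 8.50, 8.43 and 8.44 in peripubertal and 8.38, 8.23, 8.82 and 8.37 in control animals. Early life did not overlap with peripubertal, and control 3 stood inside the early life range. The difference was 0.63 (SE 0.18, adjusted p = 0.112) against peripubertal and 0.63 (SE 0.18, adjusted p = 0.147) against control. Against peripubertal it passed in 3 of 30 alternatives, among them without early life 3 (0.73, adjusted p = 0.0353). A second kept probe, A_55_P2105978, gave -0.12 (SE 0.14) in both comparisons and was well above background in 9 channels.

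On the probe that stands for each gene, Stxbp2, Stxbp3a, Stxbp4 and Stxbp5 lay between -0.32 and 0.18 in all 3 comparisons.

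Of the 13 measured synaptotagmin genes, 7, 5 and 7 had a difference above 0 in the comparisons of early life with control, peripubertal with control and early life with peripubertal, with medians of 0.15, -0.04 and 0.07. Among them Syt13 followed the same animals as Stxbp6. It is an atypical member without the usual calcium-binding residues. It read 14.84, 14.47, 13.88 and 14.22 in early life, 13.58, 13.69, 13.12 and 13.08 in peripubertal and 13.39, 13.14, 13.92 and 13.20 in control animals. Early life lay above peripubertal without overlap, by 0.99 (SE 0.26, adjusted p = 0.105, and between 0.0143 and 0.612 over the alternatives), and above control by 0.94 (SE 0.26, adjusted p = 0.149), where control 3 overlapped. The first difference passed in 3 of 30 alternatives, among them without early life 3 (1.17, adjusted p = 0.0272). In Stxbp6, Stxbp5l and Syt13 alike, early life 3 was the lowest early life animal and control 3 the highest control animal. Leaving out early life 3 raises the early life mean of each. Counts over all probes moved as well when 1 animal was left out. They ran from 6 to 687 for early life against control, where 23 passed with all animals. Between the deficient groups they ran from 8 to 1347, where 94 passed with all animals. Passing without 1 animal is therefore not particular to these genes. The mean level of 4 red cell genes, as log2 deviations from each gene's own mean averaged over the genes, also separated the deficient groups. It lay at -1.30 to 0 in early life and 0.30 to 1.81 in peripubertal animals, and the control animals, at -0.94 to 1.19, overlapped with both. The mean level of 4 folliculostellate and stem cell genes ran from -0.07 to 0.75 in early life, -0.57 to 0.06 in peripubertal and -0.32 to 0.09 in control animals. These ranges overlapped, as did those of the deficient groups in every marker list scored other than the red cell one. The hormone cell genes, for example, lay at -0.26 to 0.26 in early life and -0.27 to 0.25 in peripubertal animals. All 4 of the folliculostellate genes and 3 of the 4 red cell genes were well above background in all 12 channels. Their part in these differences was not tested.

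Syt6, best known from the acrosome reaction of sperm, had its lower values in both deficient groups on probe A_55_P2121240. It read 7.37, 7.34, 7.60 and 8.15 in early life, 7.59, 7.55, 7.67 and 8.12 in peripubertal and 8.39, 8.35, 8.83 and 8.65 in control animals. No deficient value reached a control value. The difference was -0.94 (SE 0.22, adjusted p = 0.120) for early life and -0.82 (SE 0.22, adjusted p = 0.554) for peripubertal against control. These comparisons share the control animals, the adjusted p ran from 0.0117 to 0.439 and from 0.191 to 1 over the alternatives, and in early life the probe was well above background in 2 of 4 channels. The brighter Syt6 probe, A_55_P1965219, gave -0.46 (SE 0.26, adjusted p = 0.381) and -0.02 (SE 0.26, adjusted p = 0.999).

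Syt1, the fast calcium sensor of synaptic vesicles, read 13.64, 13.60, 13.12 and 13.54 in early life animals, 13.87 and 13.50 in peripubertal 3 and 4, and 13.36, 14.03, 13.67 and 13.32 in control animals. All groups overlapped, and the differences lay between -0.21 and 0.09 with standard errors of 0.24 to 0.30. Syt4, a synaptotagmin of dense-core vesicles whose first C2 domain does not bind calcium, read 11.76, 11.97, 12.45 and 12.48 in early life, 9.82, 12.05, 12.36 and 12.41 in peripubertal and 12.59, 12.52, 12.63 and 12.39 in control animals. Peripubertal 1 stood at 9.82, below all other animals, of which the lowest was at 11.76. With it, peripubertal against control was -0.87 (SE 0.54, adjusted p = 0.999).

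Syt10 had the widest spread of all members and is named after its values were seen. It is known from olfactory bulb neurons of mice, where it controls release of insulin-like growth factor 1. It read 13.11, 14.44, 11.37 and 13.40 in early life animals, 8.82, 10.27, 11.95 and 11.66 in peripubertal animals and 12.50, 11.60, 12.62 and 10.66 in control animals. The 12 values span 5.62 log2 units, and every group overlapped with each other. Its pooled within-group SD was 1.23, larger than that of 99.6% of the 19063 probes with all values. That of Syt4 was 0.74, larger than 98.1%. For comparison, the median over the 62 member probes with all values was 0.217, and 0.223 over all probes. With this spread even an early life minus peripubertal difference of 2.41 in Syt10 (SE 0.91, 95% interval 0.41 to 4.40, adjusted p = 0.184) did not pass.

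**Figure D2:**
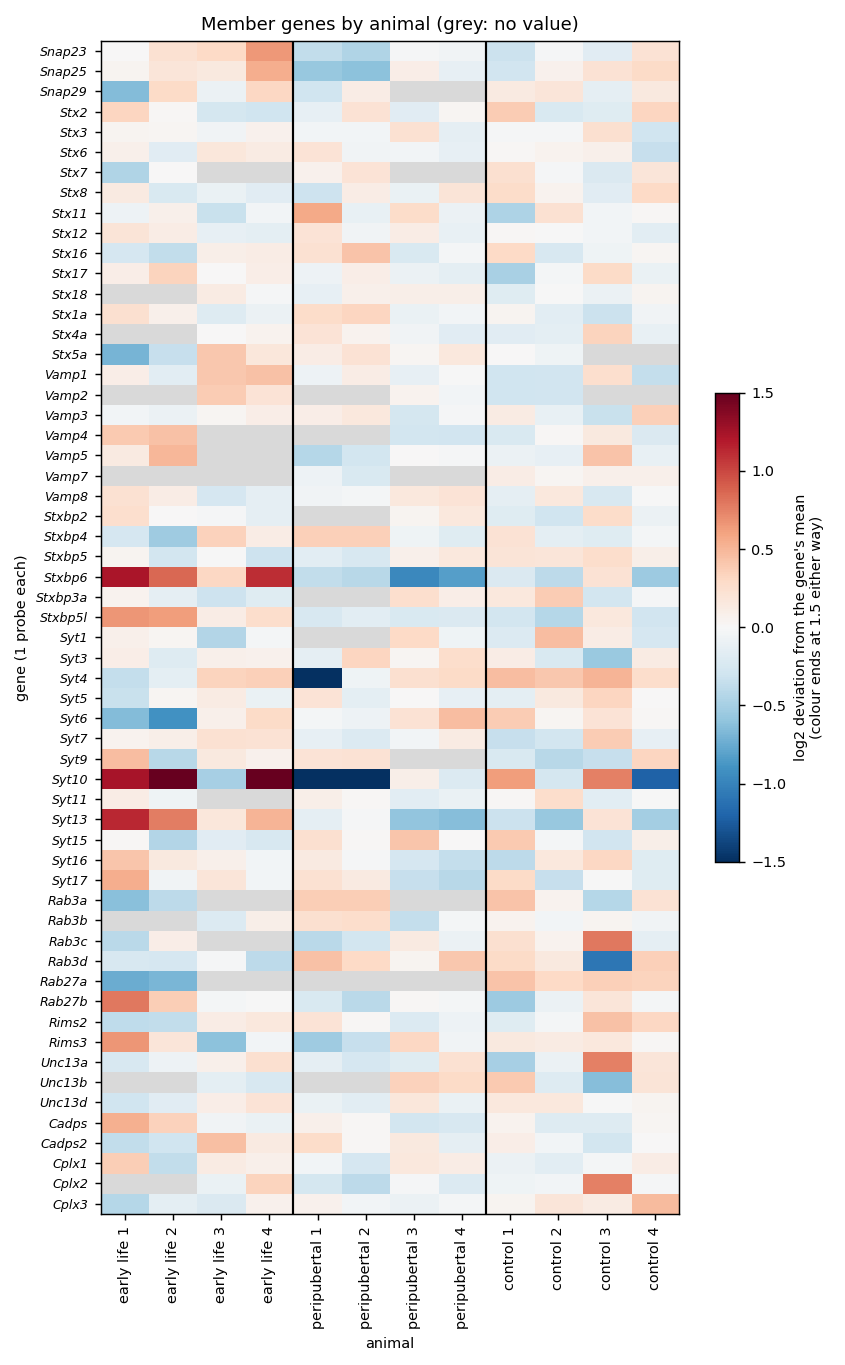
Deviation of each animal (x axis, 4 per diet group) from the gene's mean over the animals with a value, in log2 units by colour, for the brightest kept probe of 58 member genes (y axis, by role). Grey cells have no value, and colours end at 1.5 either way. Syt10 and the peripubertal 1 value of Syt4 are the deepest cells, Stxbp6 and Syt13 are red in early life 1, 2 and 4, and most other rows are pale.

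Among the Rab3 and Rab27 genes, 1 of 6 lay above 0 for early life against control (median -0.27), where 12153 of all 23753 probes did. Against control, 3 of 5 did so in peripubertal animals, with a median of 0.03, and 2 of 5 did between the deficient groups, with a median of -0.09. None passed. On the probes that stand for them, Rab27a, Rab3a, Rab3b and Rab3c had early life values from 1 array each. Rab3c split by probe. The probe that stands for it averaged 12.65 in early life and 13.04 in control animals. Another, A_55_P1956567, gave 0.51 (SE 0.25, adjusted p = 0.340) by limma for early life against control, with 2 values in each group. Rab27a, which docks secretory granules at the membrane, had values on 3 arrays. It read 10.21 and 10.28 in early life 1 and 2, none in the peripubertal animals, and 11.39, 11.25, 11.31 and 11.29 in control animals. Both early life values lay about 1 log2 unit below the narrow control range. The difference was -1.07 (SE 0.16, 95% interval -1.45 to -0.69, adjusted p = 0.0862), a fold of 2.10, and it rests on 1 early life array. It passed in 3 of 29 alternatives, among them without early life 3 (adjusted p = 0.0353). There its value is the same, because that array had none. The adjusted p ran from 0.00963 to 0.454 over the alternatives. Rab3a, the Rab of synaptic vesicles and hormone granules, read 12.47 and 12.71 in early life 1 and 2, 13.47 and 13.46 in peripubertal 1 and 2, and 13.52, 13.15, 12.67 and 13.31 in control animals. The early life values lay below the peripubertal ones, by -0.88 (SE 0.33, adjusted p = 0.210), and overlapped with control at -0.58 (SE 0.29, adjusted p = 0.347).

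Rims2, Unc13a and Cadps, which dock and prime granules, overlapped between all groups. Rims2, a scaffold that binds Rab3 on the granule and Unc13 at the release site, read 8.68, 8.69, 9.17 and 9.22 in early life, 9.26, 9.07, 8.85 and 8.98 in peripubertal and 8.87, 9.03, 9.49 and 9.37 in control animals. Its differences were between -0.25 and -0.10 (SE 0.19 each). Unc13a, or Munc13-1, opens syntaxin for assembly. Its brighter probe A_55_P2047135 read 8.18, 8.35, 8.50 and 8.67 in early life, 8.29, 8.17, 8.25 and 8.65 in peripubertal and 7.93, 8.34, 9.19 and 8.60 in control animals, so the control animals spanned both deficient groups. The other probe, A_55_P2017964, gave -0.54 (SE 0.17, adjusted p = 0.138) for early life against peripubertal, where the brighter one gave 0.09 (SE 0.26). Cadps, or CAPS1, which primes dense-core granules, read 11.70, 11.51, 11.11 and 11.06 in early life, 11.23, 11.18, 10.88 and 10.92 in peripubertal and 11.21, 10.96, 10.96 and 11.19 in control animals. The groups overlapped, with 0.29 (SE 0.17, adjusted p = 0.361) for early life against peripubertal.

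**Figure D3:**
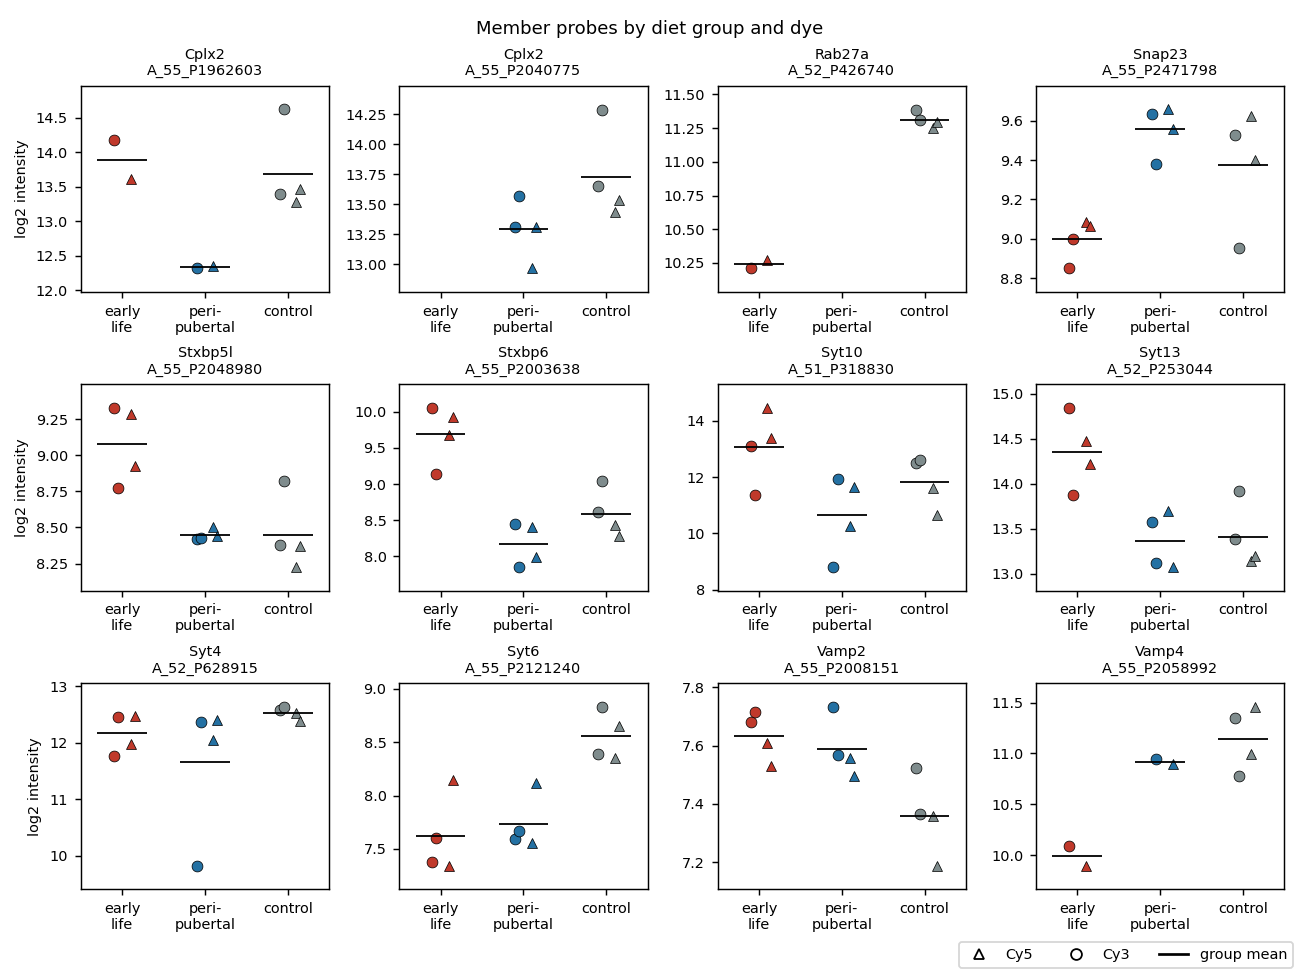
Log2 intensity (y axis, its own scale in each panel) of 12 member probes by diet group (x axis), 1 point per animal, triangles for Cy5 and circles for Cy3, with group means as lines. The early life points of Stxbp6 lie above all others, those of Rab27a and Vamp4 A_55_P2058992 come from 1 array, and 1 peripubertal animal of Syt4 stands at 9.82.

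Complexin 2 is the main complexin of chromaffin and many other secretory cells, and most probes with its symbol are made of A and G alone. RefSeq has the gene on chromosome 13, while A_55_P2040775 is placed on chromosome 5. A_55_P2067960, which stands for the gene, is placed on chromosome 13 but away from the probe with mixed bases. Whether the probes of A and G alone read Cplx2 RNA was not tested. Probe A_55_P1962603 read 14.18 and 13.61 in early life 1 and 2, 12.32 and 12.35 in peripubertal 1 and 2, and 13.39, 13.28, 14.62 and 13.47 in control animals. Peripubertal lay lowest, at -1.35 (SE 0.39, adjusted p = 0.742) against control, from 1 peripubertal array. Probe A_55_P2040775, with 16 GGA triplets, read 13.31, 12.97, 13.57 and 13.31 in peripubertal animals and 13.65, 13.44, 14.29 and 13.53 in control animals, a difference of -0.44 (SE 0.19, adjusted p = 0.999), and had no early life value. A_55_P2148402 read 14.18, 13.75, 13.56 and 13.92 in early life, 13.16 and 12.98 in peripubertal 1 and 2, and 13.64, 13.39, 14.41 and 13.49 in control animals. A_55_P2067960 read 13.95 and 14.39 in early life 3 and 4, 13.78, 13.66, 14.03 and 13.85 in peripubertal and 13.98, 14.00, 14.80 and 14.04 in control animals. Control 3 was the highest control animal on all 4 of these probes, and peripubertal 2 was the lowest peripubertal animal on all but A_55_P1962603, where peripubertal 1 was.

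On the probe with mixed bases, A_51_P485161, control 3 was again the highest animal, while peripubertal 1 and 2 lay inside the control range. It read 13.68 and 13.82 in peripubertal 1 and 2 and 13.34, 13.39, 14.13 and 13.84 in control animals, a difference of 0.08 (SE 0.28, adjusted p = 0.999). Probes of A and G alone that belong to other genes moved with the Cplx2 ones. Their median deviation from their own means was -0.49 in peripubertal 1, -0.56 in peripubertal 2 and 0.57 in control 3. Of 15 such probes tested, 12 were lower in peripubertal than in control animals, with a median of -0.34, and 12 of 14 were higher in early life than in peripubertal animals, with a median of 0.43. Their part in the Cplx2 differences was not tested.

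**Figure D4:**
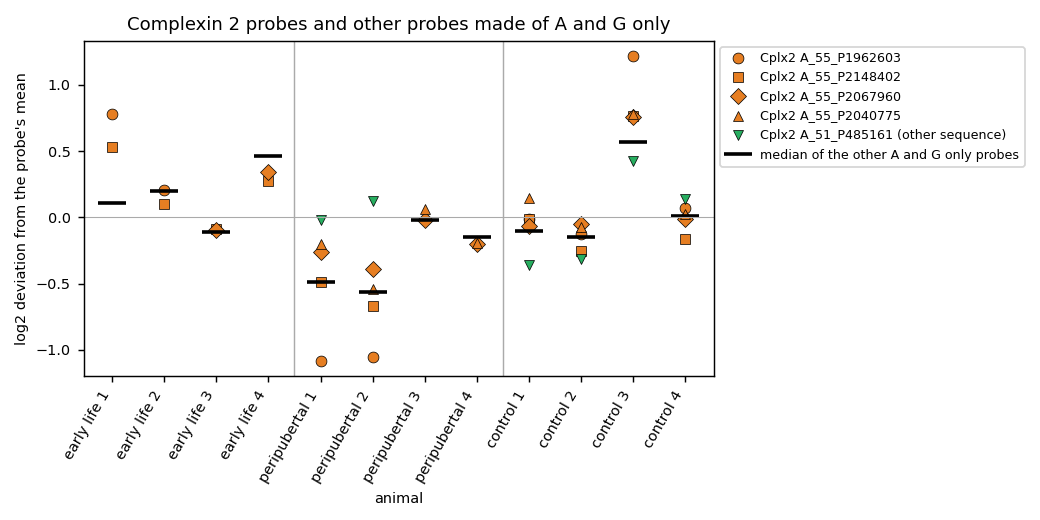
Log2 deviation from the probe's own mean (y axis) in each animal (x axis) for the 4 Cplx2 probes of A and G alone (orange), the Cplx2 probe of mixed bases (green) and, as black bars, the median of the A and G probes of other genes. Orange points and black bars are low in peripubertal 1 and 2 and high in control 3, and the green point of control 3 is high too, while the green points of peripubertal 1 and 2 lie near 0.

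By channel, 0 of 93 member probes differed between Cy5 and Cy3, where 0.0325% of all 24589 probes did. At an unadjusted p under 0.05 there were 7 (7.53%, and 9.84% of all probes), with differences between -0.39 and 0.42. The closest, named after its values were seen, was Stx6 probe A_51_P381584 at 0.25 (adjusted p = 0.311). No member spot was saturated. Dye and animal number go together on every array, so the dye term holds both.

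Values were missing unevenly. A spot that the scanner software marked as an outlier was left out in both channels, which removed 29 of 186 member values, counted once per array, in early life (15.6%, and 9.9% of all kept probes), 21 in peripubertal (11.3%, and 5.91%) and 4 in control (2.15%, and 2.11%). It fell on bright probes. Of the 31 member probes above the 75th percentile of brightness among kept probes 21 lost at least 1 array, against 10 of the other 62. The probes that stand for Rab27a, Vamp2, Vamp4, Rab3a and Cplx2 each lost at least 1 array.

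Of 58 further genes of vesicle docking, priming and recycling, such as the exocyst, synaptotagmin-like and synapsin genes, 52 could be tested between early life and control, 53 between peripubertal and control and 51 between the deficient groups. None passed by limma. At an unadjusted p under 0.05 there were 11, 4 and 13, where 17.2%, 4.99% and 20.2% of all tested probes were below it. The closest for early life against control was Exoc4, an exocyst subunit that tethers vesicles, at -0.66 (SE 0.15, adjusted p = 0.116). Sytl2, a Rab27 effector on granules, was closest in the other 2 comparisons, at 0.80 (SE 0.30, adjusted p = 0.896) for peripubertal against control and -1.36 (SE 0.30, adjusted p = 0.0728) for early life against peripubertal. Its probe averaged 6.82 in early life, 8.18 in peripubertal and 7.37 in control animals. The early life mean is at a level also read by member probes dropped as dim.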

How the data were processed

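RNA was extracted with the RNeasy Mini kit, amplified and labelled with the Low Input Quick Amp kit, per the labels' protocols. The deposited scanner files hold raw intensity for each spot and background, which, per the file headers, Agilent Feature Extraction 11.0.1.1 wrote. The deposited value table holds log2 values and was compared with the scanned channels only. The steps run here used limma 3.58.1 in R 4.3.3. Background was corrected by normexp (offset 50), dye bias by loess, and arrays were scaled by Aquantile to single-channel log2 values. Control spots and outlier-marked spots were left out, and spots of a probe averaged. Group and dye were fixed terms and array a random block, with an estimated correlation of 0.308 within arrays, 8 residual and a prior of 3.47 degrees of freedom. The fit was tested on simulated data for probes with a value in every channel only, so probes that lost arrays were not covered. RefSeq gene tables matched 99 member probes by accession and 14 by symbol.

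Genes were named by role and by the 4 smallest p in each diet comparison. The members and gene lists were chosen with earlier results of these data known. Replicates are separate animals per the labels. With 4 animals and 2 arrays per group, the number of arrays limits the precision. Same-numbered animals were not paired, since their deviations correlated between -0.18 and 0.13, with 3 of 12 over 0.1. Alternatives changed the background correction, scaling, dim-probe filter, blocks, outlier marks, rows per gene and samples used. Leaving out whole arrays was added after seeing the data. A few member genes and probe sequences are not reported here.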

Additional observations from a re-analysis of the deposited data

Results flagged for a closer look

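In 14 of the 232 groups of 4 values examined (6.03%), 1 animal stood apart from the other 3 by Dixon's test at the 95% level. Chance alone flags about 5% of groups. Control 3 accounted for 7 of the 14. It was high for Vamp1 (9.20 against 8.59 to 8.66), Vamp5 (11.45 against 10.89 to 10.93), Stx4a (13.59 against 13.09 to 13.14), Cplx2 probe A_55_P1962603 (14.62 against 13.28 to 13.47) and Cplx2 probe A_55_P2067960 (14.80 against 13.98 to 14.04), and low for Snap29 (11.54 against 11.81 to 11.85) and Rab3d (11.64 against 12.86 to 13.08). Control 4 was low for Stx6 (11.43 against 11.80 to 11.85).

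In the deficient groups, peripubertal 1 was low for Syt4 (9.82 against 12.05 to 12.41) and for Stx18 probe A_55_P2001193 (11.72 against 11.92 to 11.93). Peripubertal 2 was low for Stx18 probe A_55_P2001198 (9.41 against 9.54 to 9.55), and peripubertal 3 was high for Unc13d (7.57 against 7.38 to 7.41). Early life 3 was high for Snap23 probe A_52_P393306 (8.62 against 7.97 to 8.04), and early life 2 was low for Syt3 (10.65 against 10.91 to 10.95). All values are log2 intensities.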

How the results depend on the processing

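Member probes passed in no setting for peripubertal against control or for Cy5 against Cy3. For early life against control the 0 became 4 with no array block, 0 to 4 leaving out 1 animal (4 without early life 3, 2 without control 3) and 8 without the array of early life 3 and 4. For early life against peripubertal it became 1 with normexp offset 16, 6 with no array block, 1 with the mean of each gene's probes, 0 to 5 leaving out 1 animal (5 without early life 3, 1 without control 3), 1 without the array of control 3 and 4 and 12 without that of early life 3 and 4. Over all probes, 23 of 23753 and 94 of 23576 passed in these 2 comparisons in the main fit. Leaving out 1 animal gave up to 687 and 1347 of all probes, and the other settings are given below. The member counts per setting are therefore not read as a result about the members. Of 354 recomputed differences of the 12 named results, 352 kept their direction and 25 passed. With the brightest probe per gene Vamp4 turned to 0.49 for early life against control and Snap23 to 0.52 for early life against peripubertal, because another probe then stands for the gene.

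Counts over all probes moved widely, and the cause was not tested. For early life against control the 23 probes (13 higher, 10 lower) became 42 with normexp offset 16, 36 with processed signals, 1 with median centring (0 higher, 1 lower), 5 well above background in all channels, 785 with no array block, 12 with the replicate block, 11 with only the samples compared, 15 with outlier marks ignored and 129 with gene means. Leaving out 1 animal gave 6 to 687. Leaving out an array gave 45 (control 1 and 2), 61 (control 3 and 4), 179 (early life 1 and 2), 2738 (early life 3 and 4) and 14 (peripubertal 1 and 2).

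For peripubertal against control the 5 probes, all lower, became 10 with processed signals, 32 with no array block, 3 with only the samples compared, 20 with gene means and 0 with median centring, no filter on dim probes, the filter on all channels, the replicate block or outlier marks ignored. Leaving out 1 animal gave 0 to 3, and leaving out an array gave 34 (control 1 and 2), 9 (control 3 and 4), 23 (early life 1 and 2), 53 (peripubertal 1 and 2) and 55 (peripubertal 3 and 4).

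For early life against peripubertal the 94 probes (35 higher, 59 lower) became 24 with processed signals (18 higher, 6 lower), 36 with quantile scaling, 5 with median centring (all higher), 46 with no filter on dim probes, 11 with the filter on all channels, 1588 with no array block, 9 with the replicate block, 8 with outlier marks ignored and 167 with gene means. Leaving out 1 animal gave 8 to 1347, and leaving out an array gave 10 (control 1 and 2), 176 (control 3 and 4), 245 (early life 1 and 2) and 3246 (early life 3 and 4). For Cy5 against Cy3 the 8 probes became 3 with normexp offset 16, 4 with processed signals or median centring, 2 with quantile scaling or no array block, 15 with no dim filter, 30 with outlier marks ignored and 3 with gene means, with 2 to 20 leaving out 1 animal and 1 or 2 leaving out an array.

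The replicate block left the member counts at 0 in the 3 diet comparisons, with smallest adjusted p of 0.0974, 0.380 and 0.0784. The authors' value table was not run as an alternative, because no column's animal is settled.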
